A study of Mus musculus with 8 samples.

Results

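The 7 genes described here, *Serpina3f*, *Serpina3g*, *Serpinb1a*, *Serpinb6a*, *Serpinb6b*, *Serpinb9* and *Serpinb9b*, encode serpins tied to the protection of cytotoxic cells, and they were taken by symbol from the 48321 gene symbols of each count table. The members were chosen by their measured levels (CPM, counts scaled to library size) over WT and KO at day 0 and day 5, so their levels and differences are given as a description, and counts of members past a threshold are a record from which nothing is read. RNA was sequenced from CD8+ T cells of the spleen of C57BL/6 mice in 8 libraries, 2 for each of WT and KO at day 0 and at day 5. The series describes a floxed *Satb1* allele (*Satb1* F/F) together with *E8I-cre*, a recombinase driven by a *Cd8* enhancer of mature CD8 cells, and cells cultured in vitro under stimulation. The labels give no age, no agent of stimulation, no genotype beyond WT and KO, no allele for WT and no statement that the 2 libraries of a group came from separate animals, so p-values below measure only the spread between these libraries. Of the 7 genes, 6 had enough counts to be fitted among the 12597 genes tested, and *Serpinb9b* did not.

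Serpins are protease inhibitors that work as bait. A loop that stands out from the protein, the reactive centre loop, is cleaved by the target protease, and the serpin then springs shut with the protease trapped on it. The loop decides which protease is caught. A cytotoxic T cell stores granzymes and cathepsins in its granules, and clade B serpins in the cytosol and nucleus are known to disarm the share of these enzymes that leaks into the killer cell itself. SERPINB9 is the granzyme B inhibitor, SERPINB9B has been tied to granzyme M, SERPINB6B to granzyme A, SERPINB6A to cathepsin G, and SERPINB1A to neutrophil elastase and cathepsin G. SERPINA3G, also called Spi2A, belongs to the clade A group of antichymotrypsin relatives but acts inside the cell on lysosomal cathepsins, and SERPINA3F is its close neighbour.

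The coding bases of the reactive centre loop are shown for each gene, because the loop sets the target and near-identical relatives can be told apart there. They were read from the GENCODE M21 transcripts (GRCm38), from the hinge to the conserved motif that ends the loop, 5′ to 3′, and capitals mark bases that differ from the closest relative in the set (*Serpina3f* with *Serpina3g*, *Serpinb6a* with *Serpinb6b*, *Serpinb9* with *Serpinb9b*). *Serpinb1a* has no such partner here and is in lower case.
*Serpinb9*: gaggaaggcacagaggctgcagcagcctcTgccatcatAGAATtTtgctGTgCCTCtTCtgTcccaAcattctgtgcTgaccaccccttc
*Serpinb9b*: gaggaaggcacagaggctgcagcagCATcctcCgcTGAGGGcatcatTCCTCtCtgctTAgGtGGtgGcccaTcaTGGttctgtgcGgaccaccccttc
*Serpinb6a*: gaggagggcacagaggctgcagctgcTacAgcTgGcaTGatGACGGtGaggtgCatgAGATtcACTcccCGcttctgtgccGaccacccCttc
*Serpinb6b*: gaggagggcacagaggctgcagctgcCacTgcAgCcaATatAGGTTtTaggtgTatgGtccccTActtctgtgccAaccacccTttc
*Serpinb1a*: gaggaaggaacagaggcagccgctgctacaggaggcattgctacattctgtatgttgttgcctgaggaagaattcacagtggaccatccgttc
*Serpina3f*: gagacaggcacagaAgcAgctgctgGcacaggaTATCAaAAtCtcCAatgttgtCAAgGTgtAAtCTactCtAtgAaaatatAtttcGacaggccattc
*Serpina3g*: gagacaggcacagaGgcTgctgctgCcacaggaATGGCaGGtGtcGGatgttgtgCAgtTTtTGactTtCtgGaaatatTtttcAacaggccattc

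The start of the loop, the hinge, was nearly the same in each pair, and most differences lay after it. *Serpinb9* and *Serpinb9b* were identical at 70.6% of the loop columns against 85.6% of their aligned coding bases. *Serpinb6a* and *Serpinb6b* were identical at 74.2% of the loop columns against 86.1%. *Serpina3f* and *Serpina3g* were identical at 72.7% of the loop columns against 88.9% over the 705 coding bases that could be aligned. In each pair the loop was thus less alike than the aligned coding bases.

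The genes lie in clusters of relatives. *Serpina3f* (chr12:104214544-104221129) and *Serpina3g* (chr12:104236245-104241939) lie on the plus strand of chromosome 12 of GRCm38, 15.1 kb apart. On chromosome 13, *Serpinb1a* (chr13:32842092-32851185, minus strand), *Serpinb6b* (chr13:32965209-32979067), *Serpinb9* (chr13:33003250-33017957) and *Serpinb9b* (chr13:33027416-33041884), the last 3 on the plus strand, follow each other, and *Serpinb6a* (chr13:33917918-34002794, minus strand) lies 876 kb beyond *Serpinb9b*. Reads were 50 bases long, and reads with more than 1 place in the genome, 31.8% to 37.4% of the total, were set aside by the counting program. Of the 50-base windows of the transcripts, 0.378% of *Serpinb9*, 2.81% of *Serpinb1a* and 2.92% of *Serpinb6b* were shared with transcripts of another gene, against 10.6% of *Serpina3f*, 15.5% of *Serpina3g* and 25.1% of *Serpinb6a*, the highest share of the 7. The counts of these 3 genes are therefore less certain than those of *Serpinb9*. Windows were matched on both strands, so the shares also count genes that overlap a member on the opposite strand. A read from such an overlap need not have more than 1 place in the genome. For *Serpinb6a* the gene with the most shared windows was *Nqo2* (12.5% of windows), which overlaps it, so its share is not a measure of reads set aside. Of the *Serpinb6a* exon length, 29.3% overlaps genes on the opposite strand, and the sources used here do not say that counting used the strand.

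*Satb1*, the targeted gene, was first checked in every library. At day 0 it stood at 97.8 and 91.6 CPM in WT and at 144 and 125 CPM in KO, as labelled, and at day 5 at 96.5 and 116 CPM against 56.5 and 62.3 CPM. The labelled KO was therefore not lower at day 0 (log2 fold change 0.51, SE 0.15, edgeR adjusted p = 0.125) and was lower at day 5 (log2 fold change -0.84, SE 0.15, edgeR adjusted p = 0.0162). The latter call was lost without replicate 2 of WT (edgeR adjusted p = 0.0848), replicate 1 of KO (0.174) or replicate 2 of KO (0.156) at day 5. A gene count does not show which exons were deleted, and KO below means the libraries so labelled. Library totals ran from 4170126 to 11117971 gene counts, with replicate 1 of KO at day 0 the deepest. *Cd3* and *Cd8* genes were abundant in every library, with a summed level of 7958 to 13034 CPM over 6 markers. Markers of NK cells (5 of 6), of neutrophils and myeloid cells (9 of 12), and *Cd4* and *Ms4a1* were under 1 CPM in every library. *Cd79b*, from the B-cell list, was at 66.7 to 164 CPM while *Cd79a* reached at most 2.26 CPM, and *Csf1r*, from the myeloid list, was at 3.53 to 11.7 CPM.

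**Figure D1:**
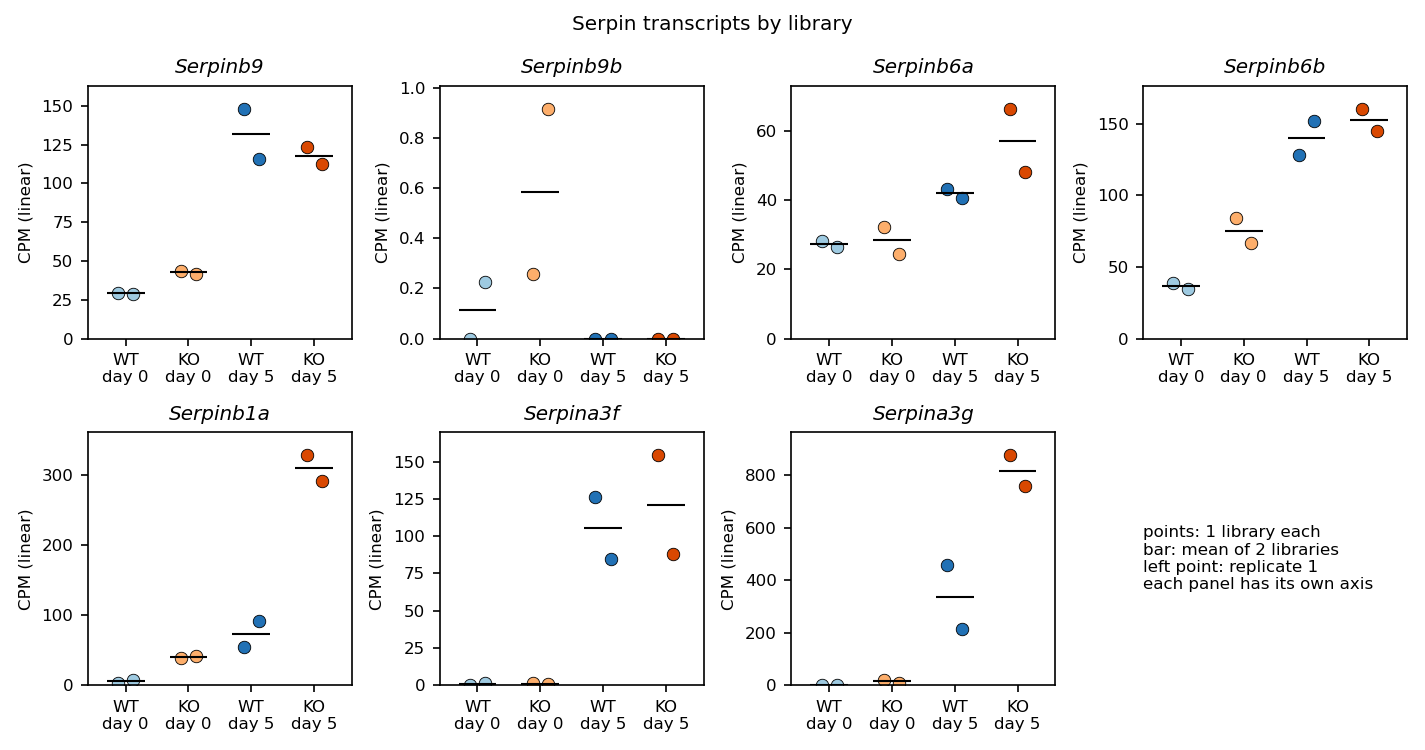
Level of each serpin transcript in CPM (linear axis that starts at 0 and differs between panels) in the 4 groups. Each point is 1 library and each bar the mean of 2. *Serpina3g* and *Serpinb1a* are highest in KO at day 5, at 759 and 876 CPM and at 292 and 328 CPM, and *Serpinb9b* stays under 1 CPM.

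*Serpinb9*, the granzyme B inhibitor, was present before culture and rose with it. Its level at day 0 was 29.5 and 28.7 CPM in WT against 43.8 and 41.3 CPM in the libraries that carry the KO label. At day 5 it stood at 148 and 116 CPM in WT and at 123 and 112 CPM in KO. The 2 KO libraries were above both WT libraries at day 0, whereas at day 5 the groups overlapped. From day 0 to day 5 the level was 4.53 times higher in WT (log2 difference 2.18, SE 0.17) and 2.76 times higher in KO (1.47, SE 0.16). The log2 difference of KO from WT was 0.55 (SE 0.17) at day 0 and -0.16 (SE 0.15) at day 5, and the latter changed sign without replicate 1 of WT at day 5 (0.04).

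*Serpinb9b*, next to it on the chromosome, was barely detected. It had 0 and 1 counts in WT at day 0, 3 and 5 counts in KO at day 0, and no count in the 4 libraries of day 5. The 0 counts at day 5 allow a level of up to 0.306 CPM in WT and 0.28 CPM in KO, taking 3 counts over the 2 libraries of a group as the limit, for counting error only. At this depth no difference between groups could be read for it. Of its 50-base windows, 5.38% were shared with transcripts of other genes, 4.90% with *Gm36099*, which overlaps it on the opposite strand. Places elsewhere in the genome were not searched.

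*Serpinb6b*, the granzyme A inhibitor, had the highest level per length of the 7 genes at day 0. It stood at 38.5 and 34.4 CPM in WT and at 84.2 and 66.6 CPM in KO at day 0, and at 128 and 152 CPM in WT and 160.2 and 145 CPM in KO at day 5. Before culture the 2 KO libraries were above both WT libraries by 2.08 times in the fit (log2 difference 1.05, SE 0.17). After culture the ranges overlapped and the log2 difference was 0.13 (SE 0.15). The level was 3.83 times higher at day 5 than at day 0 in WT (log2 difference 1.94, SE 0.17) and 2.01 times higher in KO (1.01, SE 0.16).

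*Serpinb6a*, the cathepsin G inhibitor, had the smallest change with culture in WT among the genes fitted. It stood at 28.1 and 26.5 CPM in WT and at 32.3 and 24.4 CPM in KO at day 0, with overlapping ranges. At day 5 it stood at 43.2 and 40.5 CPM in WT and at 66.2 and 47.9 CPM in KO. Both KO libraries were then above both WT libraries, by a log2 difference of 0.45 (SE 0.20) that fell to 0.19 without replicate 1 of KO. The level at day 5 was 1.53 times that at day 0 in WT (log2 difference 0.62, SE 0.21) and 2.0 times in KO (1.0, SE 0.20). *Nqo2*, the quinone reductase gene on the opposite strand, stood at 8.76 and 8.82 CPM in WT and at 22.9 and 16.1 CPM in KO at day 0 (log2 fold change 1.17, SE 0.23, edgeR adjusted p = 0.0255), a call lost under 5 of 17 alternatives (without either WT library or replicate 1 of KO at day 0, without replicate 1 of KO at day 5, and with only the libraries compared, adjusted p up to 0.214). It was higher at day 5 in WT (1.38, SE 0.24, edgeR adjusted p = 0.000435) and in KO (0.93, SE 0.21, edgeR adjusted p = 0.00245). The part of reads shared between the strands in the *Serpinb6a* values was not tested.

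*Serpinb1a*, the inhibitor of neutrophil elastase and cathepsin G, separated the labels at both days. At day 0 it stood at 3.58 and 7.69 CPM in WT and at 39.1 and 41.8 CPM in KO, with group means of 5.63 ± 2.91 and 40.5 ± 1.93 CPM (SD, n = 2). At day 5 it stood at 54.9 and 91.8 CPM in WT and at 328 and 292 CPM in KO, with means of 73.3 ± 26.1 and 309.7 ± 25.3 CPM (SD, n = 2). On each day the lower KO library was above the higher WT library. The fit put the KO level at 7.37 times that of WT at day 0 (log2 difference 2.88, SE 0.31) and at 4.25 times at day 5 (2.09, SE 0.24). The level was higher after culture in each genotype, 13.3 times in WT (log2 difference 3.73, SE 0.31) and 7.66 times in KO (2.94, SE 0.24). Without replicate 2 of WT at day 0, the WT library with the higher level, the ratio of KO to WT at day 0 was 11.2 and the change with culture in WT was 20.4 times.

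*Serpina3g*, the cathepsin inhibitor Spi2A, had the widest range of the 7 genes. In WT at day 0 it had 1 and 2 counts, which correspond to 0.179 and 0.452 CPM, whereas the libraries labelled KO had 227 and 50 counts, or 19.5 and 9.18 CPM. By pooled counts the KO level was 54.0 times that of WT at day 0, with an exact counting interval (95%) of 18.3 to 264, which covers counting error only. The fitted ratio of 47.0 was 28.3 without replicate 1 of KO and 75.4 without replicate 2 of WT at day 0. At day 5 it stood at 458 and 213 CPM in WT and at 876 and 759 CPM in KO, with means of 335 ± 174 and 817 ± 83.2 CPM (SD, n = 2). Both KO libraries were above both WT libraries on each day, and the 2 WT libraries of day 5 differed from each other by more than the KO libraries did. The log2 difference of KO from WT at day 5 was 1.28 (SE 0.30), between 0.83 without replicate 2 of WT and 1.95 without replicate 1 of WT. From day 0 to day 5 the level was 54.2 times higher in KO (log2 difference 5.76, SE 0.38) and 89.5 times without replicate 1 of KO at day 0. In WT the pooled counts gave 1180 times with a counting interval of 405 to 5740. The fitted value there, 1048 times, was 1697 times without replicate 2 of WT at day 0 and 673 times without replicate 1 of WT at day 5.

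*Serpina3f*, its neighbour on chromosome 12, rose with culture but did not separate the labels. It had 0 and 5 counts in WT and 13 and 2 counts in KO at day 0, a ratio of 1.76 with a counting interval of 0.607 to 6.18. The fitted ratio of 1.69 was 0.767 without replicate 1 of WT and 0.741 without replicate 1 of KO, so its direction rests on single libraries. At day 5 it stood at 126 and 84.6 CPM in WT and at 154 and 88.0 CPM in KO, with overlapping ranges and a log2 difference of 0.20 (SE 0.31). That difference was -0.26 without replicate 1 of KO at day 5. The level in KO was 137 times higher at day 5 than at day 0 (log2 difference 7.10, SE 0.49), or 312 times without replicate 1 of KO at day 0, which leaves a library with 2 counts. In WT the pooled counts gave 217 times with a counting interval of 92.9 to 671, which covers counting error only. The fitted value of 202 times was 92.3 times without replicate 1 of WT at day 0, and without replicate 2 the remaining WT library had 0 counts, so no ratio is given. At day 0 the library labelled KO with the most *Serpina3g* counts also had the most *Serpina3f* counts, 13, and it is the deepest library.

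**Figure D2:**
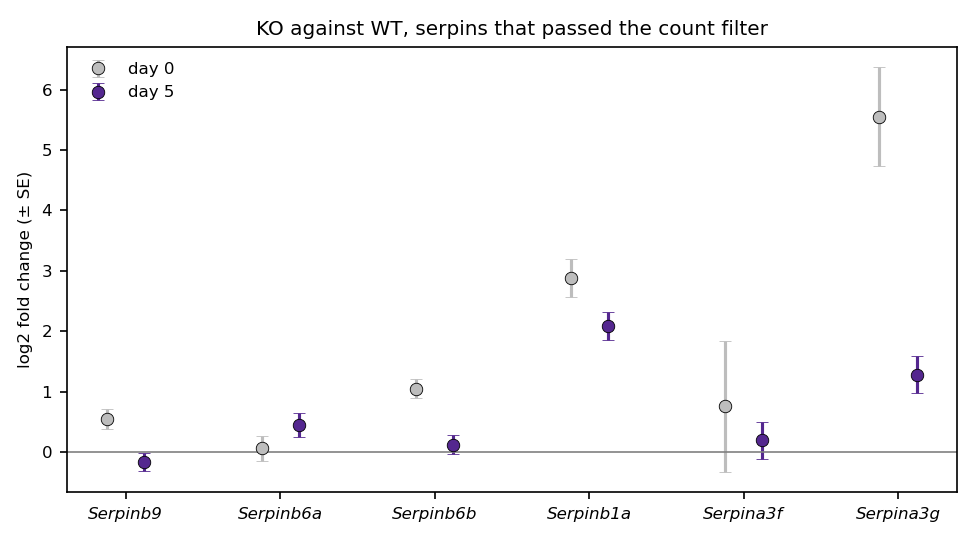
Log2 fold change of KO against WT (vertical axis, points) with its standard error (bars) for the 6 serpins fitted, at day 0 (grey) and day 5 (purple). *Serpina3g* and *Serpinb1a* are above 0 at both days, at 5.56 and 2.88 at day 0 and at 1.28 and 2.09 at day 5.

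Across the set, the fitted difference between the labels was larger in size at day 0 than at day 5 for 5 of the 6 genes, and *Serpinb6a* was the exception. For *Serpina3f* this order did not hold at equal depth, where the log2 difference was -0.01 at day 0 and 0.21 at day 5. Of the 6, 3 were past the threshold at day 0 (*Serpina3g*, *Serpinb1a* and *Serpinb6b*, all higher in KO, edgeR false discovery rate, FDR, under 0.05), beside 1.80% of all genes tested in either direction and 0.913% in the higher direction. At day 5 *Serpinb1a* was past it, beside 1.63% of all genes in either direction and 1.31% in the higher direction. Under 6 alternatives and without any of 3 libraries (replicate 1 or 2 of KO at day 0, replicate 1 of WT at day 5) *Serpina3g* was past it as well at day 5. Without either WT library of day 0, *Serpinb1a* alone remained past it at day 0. These comparisons are the ones in view when the genes were listed, so the counts are a record and not evidence. The 2 KO libraries lay above both WT libraries for 4 of the 6 at day 0, where 21.7% of all genes did, and for 3 of the 6 at day 5, where 25.0% did. No member passed the threshold for the difference between the genotype effects of the 2 days, for which 20 of 12597 genes (0.159%) did (edgeR), 1562 at an unadjusted p under 0.05. DESeq2 put 2 of the 6 past it (*Serpina3g* and *Serpinb6b*), beside 144 genes (1.14%) of all. The difference of differences was -4.27 (SE 1.0) for *Serpina3g*, -0.93 (SE 0.23) for *Serpinb6b*, -0.79 (SE 0.40) for *Serpinb1a*, -0.71 (SE 0.22) for *Serpinb9*, -0.56 (SE 1.12) for *Serpina3f* and 0.38 (SE 0.29) for *Serpinb6a* on the log2 scale. Over 17 alternatives it ran from -1.40 to -0.31 for *Serpinb1a*, from 0.13 to 0.61 for *Serpinb6a* and from -4.96 to -3.55 for *Serpina3g*, each bound reached by leaving out 1 library. For *Serpina3f* its sign changed under 3 alternatives, and it reached 0.63 without replicate 1 of KO at day 0. Without replicate 2 of WT at day 0 the remaining WT library had 0 counts, so no value is given.

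Genes from the gamma delta T-cell list moved with the label at day 0 as well. *Tcrg-C4*, a gamma chain constant gene, stood at 4.11 and 6.56 CPM in WT and at 52.8 and 50.3 CPM in KO (log2 fold change 3.29, SE 0.27, edgeR adjusted p = 5.69e-05). *Tcrg-C2* and *Tcrg-C1* were also higher (2.84 and 1.72 on the log2 scale, edgeR adjusted p = 6.72e-05 and 0.028; the latter call was lost under 5 of 17 alternatives, among them without either WT library or replicate 2 of KO at day 0), and the summed list rose from between 62.2 and 94.1 CPM to between 159 and 161 CPM. *Trdc*, the delta chain constant gene, was at 53.3 and 81.9 CPM in WT and at 80.9 and 77.3 CPM in KO (log2 fold change 0.23, edgeR adjusted p = 0.763), and *Sox13* was under 1 CPM in every library. At day 5 *Tcrg-C4* and *Tcrg-C2* were again higher in KO (1.58 and 0.99, edgeR adjusted p = 0.00383 and 0.00778), calls lost without replicate 2 of KO at day 5 (edgeR adjusted p = 0.0502 and 0.166). *Tcrg-C1* did not differ at day 5, at 107 and 79.5 CPM in WT and 87.7 and 98.1 CPM in KO (-0.01, edgeR adjusted p = 0.991). *Trdc* was then at 27.3 and 45.3 CPM in WT and at 29.4 and 21.4 CPM in KO (-0.50, edgeR adjusted p = 0.442). The CD4 list, which sums to little, was at 1.36 to 3.58 CPM in WT and at 6.06 to 6.26 CPM in KO at day 0, with neither of its 2 fitted genes past the edgeR test. In bulk RNA, more cells of a type and more RNA per cell cannot be told apart, and the part of these transcripts' source in the serpin values was not tested.

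**Figure D3:**
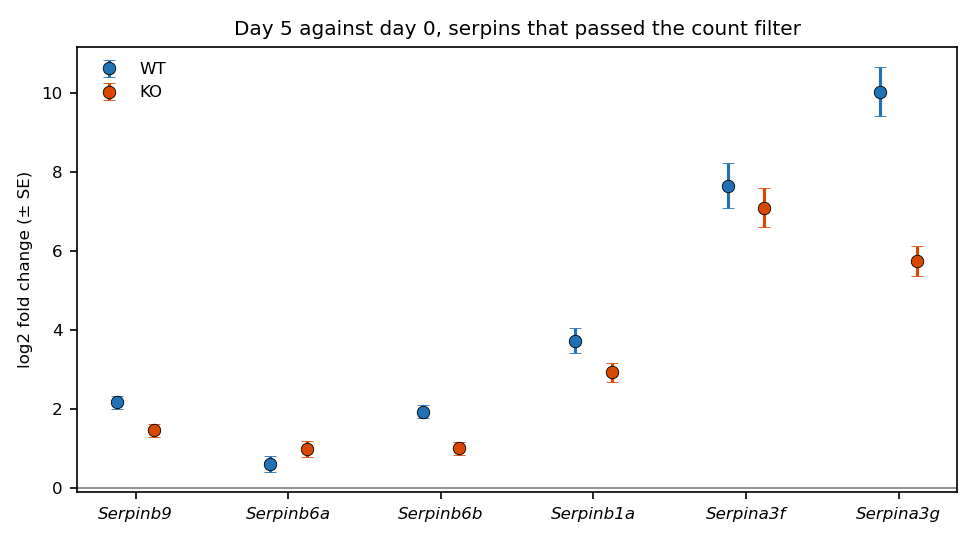
Log2 fold change of day 5 against day 0 (vertical axis, points) with its standard error (bars) for the 6 serpins fitted, in WT (blue) and KO (orange). Every point is above 0, from 0.62 for *Serpinb6a* in WT to 10.03 for *Serpina3g* in WT, a value that rests on 3 counts in WT at day 0.

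With culture, all 6 serpins fitted were higher at day 5 than at day 0 in each genotype, and both day 5 libraries lay above both day 0 libraries for each of them, as they did for 35.7% of all genes in WT and 38.2% in KO. The filter on low counts bears on this tally, since *Serpina3f* passed it through its day 5 libraries, whereas *Serpinb9b*, with counts at day 0 alone, did not pass. All 6 were past the threshold in WT and in KO, beside 48.3% of all genes tested in WT (24.7% higher) and 50.2% in KO (26.2% higher). In WT the call of *Serpinb6a* was lost when library totals or an offset for GC content and length were used and without replicate 1 or 2 of WT at day 0 or replicate 1 of WT at day 5. With the background at such a level, the direction is shared with many other genes. Marker lists moved with culture too. The gamma delta T-cell list went in sum from 62.2 and 94.1 to between 321 and 347 CPM in WT. In KO it went from between 159 and 161 to between 514 and 611 CPM. Of its 4 fitted genes, 3, all gamma chain constant genes, were higher in each genotype (edgeR). *Trdc*, the delta chain gene, was lower in each (-0.90 in WT and -1.64 in KO, edgeR adjusted p = 0.012 and 0.000219). Of 6 CD8 T-cell markers, 4 were lower in WT and 3 in KO. *Cd79b*, the fitted B-cell marker, was lower in each, as was 1 of 2 fitted CD4 markers. Of 2 fitted myeloid markers, 2 were lower in WT and 1 in KO (edgeR). The part of these lists in the serpin values was not tested. The sizes of the serpin changes ranged widely, from 1.53 times for *Serpinb6a* to 13.3 times for *Serpinb1a* in WT among genes with more than 5 counts in every library. The summed level of the 7 genes was 99.8 and 99.0 CPM in WT and 220.2 and 185 CPM in KO at day 0, and 959 and 697 CPM in WT and 1708 and 1443 CPM in KO at day 5. The 61 other serpin symbols together held 36.5 to 85.7 CPM in any library.

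Per kilobase of merged exons, the order of levels turned over between the days. In WT at day 0, *Serpinb6b* was highest at 17.0 and 15.2 CPM per kb, followed by *Serpinb9* at 8.45 and 8.22, *Serpinb6a* at 5.19 and 4.89 and *Serpinb1a* at 1.55 and 3.34, with no overlap between neighbours. *Serpina3f* and *Serpina3g* overlapped each other below 0.5 CPM per kb. In the libraries labelled KO at day 0, *Serpinb1a* was second at 17.0 and 18.2 CPM per kb after *Serpinb6b* at 37.2 and 29.4, and *Serpina3g* at 9.25 and 4.36 overlapped *Serpinb6a* at 5.96 and 4.51. At day 5 *Serpina3g* was highest in every library, at 218 and 101 CPM per kb in WT and at 416 and 360.3 in KO. In WT it was followed by *Serpinb6b* at 56.6 and 67.1 CPM per kb, and below that *Serpina3f*, *Serpinb9* and *Serpinb1a* overlapped. In KO *Serpinb1a* was second at 142 and 127 CPM per kb, and *Serpinb6b* at 70.8 and 64.0 overlapped *Serpina3f* at 67.4 and 38.4. The place of *Serpinb6a* depends on its length, since its merged exons span 5409 bases but its longest transcript 2191 bases, and by the latter it lay above *Serpinb9* in WT at day 0, at 12.8 and 12.1 against 8.50 and 8.27 CPM per kb.

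**Figure D4:**
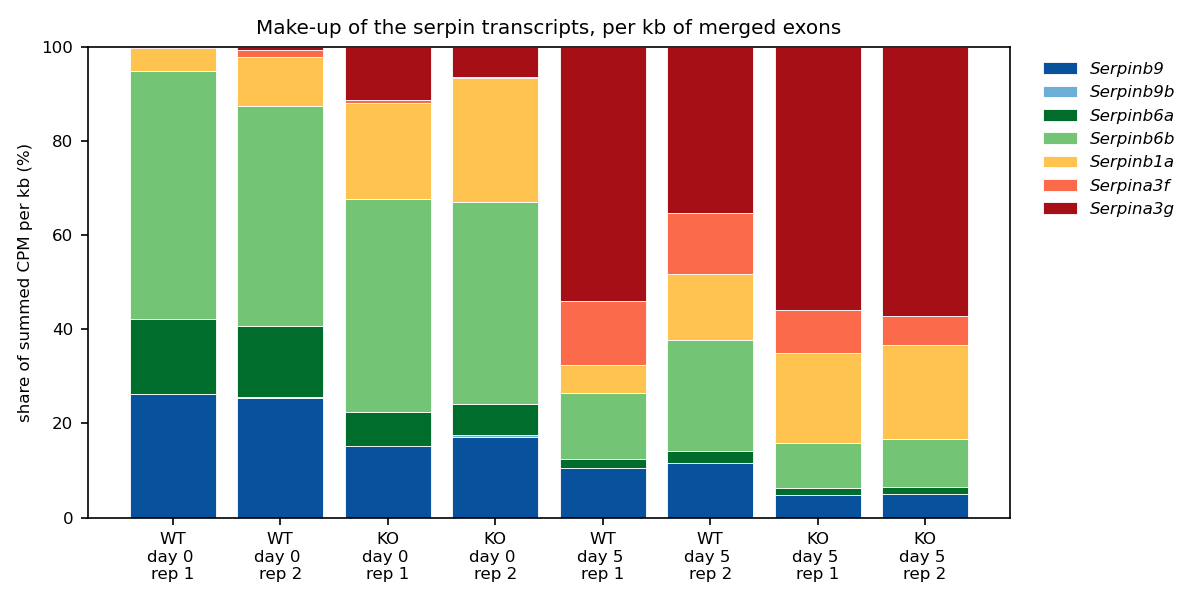
Share of each serpin in the summed CPM per kb of merged exons of the 7 genes (vertical axis, percent) in each of the 8 libraries. *Serpinb6b* holds 42.8% to 52.7% in the day 0 libraries and *Serpina3g* 35.4% to 57.2% in the day 5 libraries.

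The make-up of the set moved toward clade A with culture, though clade B still held the larger part in replicate 2 of WT at day 5. *Serpina3g* held 0.263% and 0.663% of the summed CPM per kb in WT at day 0, 11.2% and 6.34% in KO at day 0, 54.0% and 35.4% in WT at day 5 and 55.9% and 57.2% in KO at day 5. *Serpinb9* went the other way, from 26.2% and 25.4% at day 0 to 10.5% and 11.6% at day 5 in WT, and from 15.2% and 17.2% to 4.75% and 5.10% in KO. A falling share is not a falling level, as *Serpinb9* itself was higher at day 5 in CPM.

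The proteases that these serpins are known to bind showed different patterns. *Gzmb*, granzyme B, stood at 3.22 and 3.84 CPM in WT and at 1.80 and 1.65 CPM in KO at day 0, and at 4807 and 4429 CPM in WT and 4602 and 3925 CPM in KO at day 5. It rose by 10.36 on the log2 scale in WT (SE 0.18, edgeR adjusted p = 3.09e-12) and 11.23 in KO (SE 0.19, edgeR adjusted p = 1.75e-12), and at day 5 it did not pass the test between the labels (-0.12, SE 0.11, edgeR adjusted p = 0.712). Per kilobase, *Gzmb* was at 0.0973 to 0.326 times the level of its inhibitor *Serpinb9* in the day 0 libraries and at 79.0 to 93.2 times in those of day 5. *Serpinb9* and *Gzmb* thus both rose, by very different factors.

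*Gzma*, granzyme A, was higher in KO at day 5, at 1005 and 675 CPM against 326 and 146 CPM in WT (log2 fold change 1.83, SE 0.29, edgeR adjusted p = 0.00909), whereas its inhibitor *Serpinb6b* differed by 0.13 on that scale. Per kilobase, *Gzma* stood at 14.1 and 10.5 times *Serpinb6b* in KO at day 5 and at 5.73 and 2.16 times in WT. Over 18 alternatives the edgeR or DESeq2 adjusted p for *Gzma* ran from 1.1e-28 to 0.0739, and 1 lost the call. *Gzmk*, another granzyme, was also higher in KO at day 5, at 134 and 103 CPM against 25.6 and 34.2 CPM (log2 fold change 2.0, SE 0.23, edgeR adjusted p = 0.00182). *Gzmm*, granzyme M, stayed low at 6.25 to 16.9 CPM in the day 5 libraries, and its labels overlapped (-0.70, SE 0.49, edgeR adjusted p = 0.582). Of the 10 granzyme genes, 5 could be fitted, and all 5 rose with culture in WT and in KO, though *Gzmm* in KO did not pass without replicate 1 of KO at day 0 (edgeR adjusted p = 0.0514). Over all genes tested 24.7% in WT and 26.2% in KO were higher, and *Gzmc*, *Gzmk* and *Gzmm* passed the filter on low counts through their day 5 libraries, so the tally is in part set by that filter. At day 5 *Gzma* and *Gzmk* were higher in KO and 3 did not pass the test, beside 1.31% of all genes higher and 1.63% called in either direction. At day 0 none of the 5 passed it in edgeR or DESeq2, with 1 at an unadjusted p under 0.05. The 5 had at most 21 counts in any library of day 0, so the lack of a call there says little. Their median log2 fold change (-0.19, against 0.00 over all genes) is the value of *Gzma*, which had an SE of 0.76.

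Genes of the cathepsin list, which was not limited to proteases tied to *Serpina3g*, mostly went down with culture, though *Ctsb* did not. Of 10 fitted, 1 rose and 6 fell in WT, and 2 rose and 6 fell in KO (median log2 fold change -0.55 and -0.50, against -0.04 and -0.05 over all genes), beside 48.3% and 50.2% of all genes called in either direction. The KO count includes *Ctsd*, whose call there (edgeR adjusted p = 0.0317) was lost under 5 of 18 alternatives, among them DESeq2 and leaving out replicate 1 of KO at day 0 or either KO library of day 5. *Ctsb*, cathepsin B, stood at 459 and 447 CPM in WT at day 0, at 490.3 and 492 CPM in WT at day 5 and at 629 and 701 CPM in KO at day 5. It rose in KO (0.63, SE 0.11, edgeR adjusted p = 0.000473) and did not pass the test in WT (0.12, SE 0.11, edgeR adjusted p = 0.413) or between the labels at day 5 (0.44, SE 0.11, edgeR adjusted p = 0.0745). *Ctsl*, cathepsin L, fell in KO, from 24.1 and 21.5 CPM to 13.6 and 11.2 CPM (-0.88, SE 0.25, edgeR adjusted p = 0.0106), a call lost without replicate 1 of KO at day 0 (edgeR adjusted p = 0.0563) or replicate 2 of KO at day 5 (0.101). *Ctse* fell furthest in KO, by 2.23 on the log2 scale (SE 0.21, edgeR adjusted p = 3.06e-06), and *Ctso* and *Ctss* fell in WT and KO. *Ctsd*, cathepsin D, passed the test between the labels at day 5 (0.69, SE 0.14, edgeR adjusted p = 0.03), and that call was lost under 6 of 18 alternatives. DESeq2 called 3 of the 10 there, *Ctsa*, *Ctsb* and *Ctsd*, beside 2.78% of all genes, and edgeR 1 of the 10, beside 1.63%. Per kilobase, *Ctsb* was at 7.54 and 16.6 times *Serpina3g* in KO at day 0, and at 0.25 to 0.805 times in the day 5 libraries of WT and KO.

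The neutrophil proteases that *Serpinb1a* and *Serpinb6a* are best known for were almost not detected. Of a list of 4 neutrophil serine proteases, 1 could be fitted. *Elane*, neutrophil elastase, was at 0 CPM in 7 of 8 libraries and at 0.183 CPM in replicate 2 of KO at day 0, and *Ctsg*, cathepsin G, reached at most 0.367 CPM. The fitted gene, *Prss57*, passed the filter through day 5, where it stood at 2.47 and 3.13 CPM in WT and at 5.33 and 5.87 CPM in KO, and it rose in WT (edgeR adjusted p = 0.00195) and in KO (edgeR adjusted p = 0.000142) from 1 and 3 pooled counts at day 0.

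**Figure D5:**
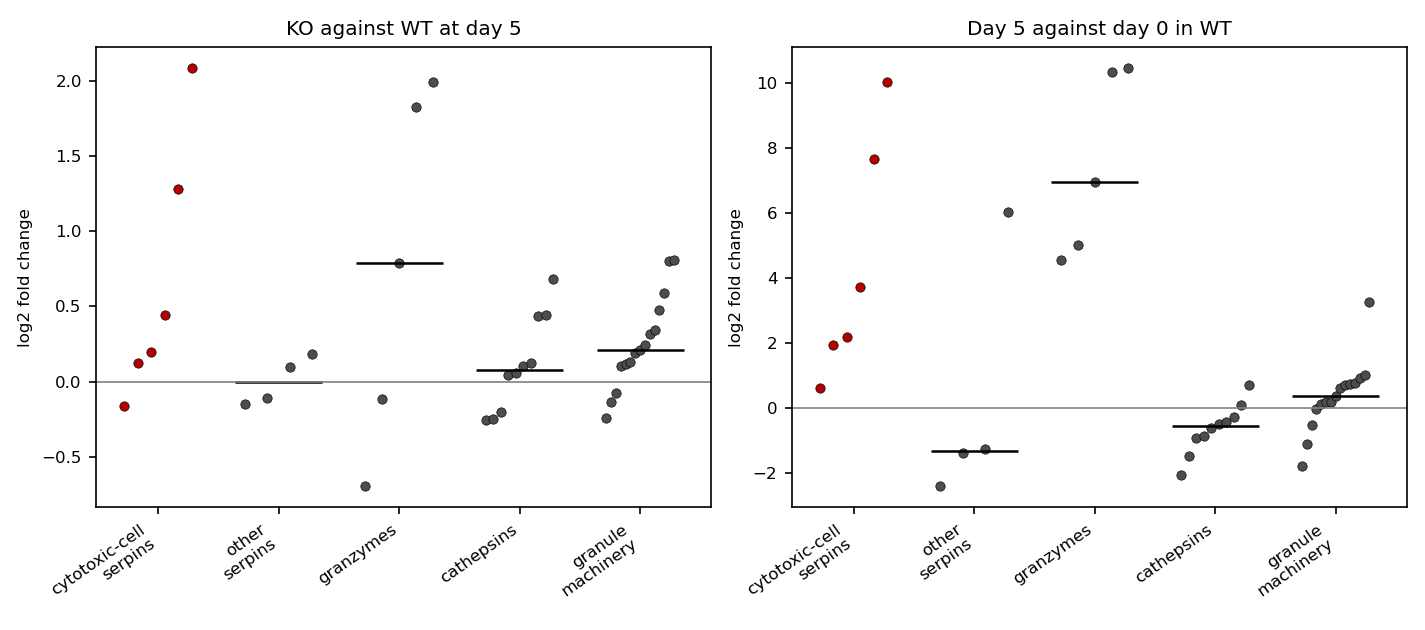
Log2 fold change (vertical axis) of each fitted gene (points) for the cytotoxic-cell serpins (red) and for other serpins, granzymes, cathepsins and granule machinery (dark), for KO against WT at day 5 (left) and day 5 against day 0 in WT (right). Bars are the medians of the other lists. The serpins span -0.16 to 2.09 on the left and 0.62 to 10.03 on the right, and the granzyme median is 6.95 on the right.

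Genes of the granule and its release moved both ways with culture. Of 15 fitted, 7 rose and 2 fell in WT with culture, and 6 rose and 1 fell in KO, shares near those over all genes tested (48.3% in WT and 50.2% in KO). Those that rose include *Stx11*, which passed the filter on low counts through its day 5 libraries. It had 2 pooled counts in WT and 4 in KO at day 0, against 21 and 40 at day 5. *Prf1*, perforin, went from 138 and 179.5 CPM to 86.1 and 61.0 CPM in WT (-1.10, SE 0.18, edgeR adjusted p = 0.000326) and stood at 137 and 121 CPM in KO at day 5. Between the labels at day 5 *Prf1* and *Stxbp2*, a partner of syntaxin in granule fusion, were higher in KO (0.81, edgeR adjusted p = 0.0489, and 0.59, edgeR adjusted p = 0.0253), and these calls were lost under 9 and 7 of 18 alternatives. *Cst7*, cystatin F, an inhibitor of lysosomal cathepsins, rose in WT (0.93, SE 0.15, edgeR adjusted p = 0.000248) and in KO (1.08, SE 0.15, edgeR adjusted p = 5.95e-05). *Nkg7*, *Lamp2* and *Rab27a* rose as well in each genotype, and *Slc29a3*, a lysosomal nucleoside transporter, fell in each. Of the caspases, *Casp1*, the inflammatory caspase, rose by 3.82 in WT (SE 0.36, edgeR adjusted p = 2.68e-06) and 3.86 in KO (SE 0.35, edgeR adjusted p = 1.68e-06), and *Casp2* fell by 0.71 in WT (SE 0.13, edgeR adjusted p = 0.000803) and 0.56 in KO (SE 0.13, edgeR adjusted p = 0.00356). The *Casp2* call in KO was lost without replicate 1 of KO at day 5 (-0.47, edgeR adjusted p = 0.0634).

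Few of the 61 other serpin symbols were expressed. No count was found for 9 of them in any library, and 4 could be fitted, of which 3 fell and 1 rose in WT and 2 fell and 1 rose in KO, beside 48.3% and 50.2% of all genes called in either direction. Of these, *Serpine2* passed the filter on low counts through day 5 and *Serpine3* through WT at day 0, the groups in which they are high. *Serpini1*, neuroserpin, stood at 54.2 and 49.5 CPM in WT at day 0 and at 21.9 and 21.2 CPM in WT at day 5 (-1.27, SE 0.18, edgeR adjusted p = 0.000102), and fell in KO by 1.36 (edgeR adjusted p = 4.15e-05). *Serpinc1*, antithrombin, fell in both and *Serpine3* fell in WT, calls that did not all hold. The *Serpinc1* call was lost in WT with DESeq2 and without replicate 2 of WT at day 0 or replicate 1 of WT at day 5 (edgeR or DESeq2 adjusted p up to 0.121), and in KO without replicate 2 of KO at day 5 (edgeR adjusted p = 0.076). That of *Serpine3* was lost with DESeq2 and without any of 6 libraries, namely those of WT at either day and of KO at day 5 (edgeR or DESeq2 adjusted p up to 0.181). *Serpine2*, protease nexin 1, stood at 7.41 and 35.9 CPM in WT at day 5 and rose from 3 counts at day 0 (edgeR adjusted p = 0.000185). By pooled counts the ratio was 64.9 with a counting interval of 21.9 to 318, which does not cover the gap between the 2 libraries of day 5. *Serpinb1b*, the closest expressed relative of *Serpinb1a* by name, reached at most 2.76 CPM, and *Serpinf1* at most 2.46 CPM. None of the 4 passed the test between the labels at either day in edgeR or DESeq2, with 1 at an unadjusted p under 0.05 at day 0 and 0 at day 5.

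Few other genes near a member could be fitted. Within 100 kb there were 6, of which 5 lie by *Serpinb6a* and 1 by *Serpinb1a*, and none by the other members. Of the 6, 1 was higher in KO at day 0 (*Nqo2*, above) and none passed the test between the labels at day 5 in edgeR or DESeq2 (1 at an unadjusted p under 0.05), against 1.80% and 1.63% of all genes. *Wrnip1*, a replication-stress ATPase gene 19.5 kb from *Serpinb1a*, stood at 13.8 and 8.37 CPM in WT and at 10.7 and 10.1 CPM in KO at day 0, where *Serpinb1a* was 7.37 times higher in KO. *Ripk1*, the death-receptor kinase that overlaps *Serpinb6a*, did not pass the edgeR test at either day (adjusted p = 0.626 and 0.671).

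The upstream bases of the *Serpina3* pair are shown because these neighbours rose together with culture and differed in their relation to the label. They are the 250 bases before the RefSeq start, for *Serpina3f* the first of 2, GRCm38.p6, plus strand, 5′ to 3′, with capitals for matches to 5 motifs searched on both strands (TTCNNNGAA of STAT factors, TGANTCA of AP-1, TATAAA, a kappaB motif and an interferon response motif).
*Serpina3f*, chr12:104214294-104214543: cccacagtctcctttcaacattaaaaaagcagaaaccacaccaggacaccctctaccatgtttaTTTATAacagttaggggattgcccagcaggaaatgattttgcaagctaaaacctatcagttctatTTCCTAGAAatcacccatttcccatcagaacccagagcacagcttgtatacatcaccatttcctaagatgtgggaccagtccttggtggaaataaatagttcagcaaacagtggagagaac
*Serpina3g*, chr12:104235897-104236146: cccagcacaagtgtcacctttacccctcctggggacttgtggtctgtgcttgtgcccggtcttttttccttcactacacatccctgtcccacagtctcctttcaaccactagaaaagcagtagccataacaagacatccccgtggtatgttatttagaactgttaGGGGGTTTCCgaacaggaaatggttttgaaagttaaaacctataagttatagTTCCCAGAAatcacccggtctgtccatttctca

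The 2 stretches were 81.0% identical over 147 aligned bases. Each held 1 match to TTCNNNGAA, 121 bases before the start of *Serpina3f* and 33 bases before that of *Serpina3g*, a motif found in 8.30% of all 32851 promoter windows of 300 bases. The RefSeq start of *Serpina3g*, just after chr12:104236146, lies upstream of its GENCODE start at chr12:104236245, whereas for *Serpina3f* they agree. The difference in distance between the 2 genes thus depends on the start used. The match to the kappaB motif on the opposite strand, 85 bases before the *Serpina3g* start, had no counterpart in *Serpina3f*, and 1.63% of all windows held that motif. *Serpina3f* held TATAAA on the opposite strand, as did 13.6% of all windows in either direction. Counted from its second RefSeq start the TTCNNNGAA match of *Serpina3f* lay 210 bases before the start, and that window held no TATAAA. A match to the interferon response motif (3.44% of all windows) lay 46 bases before the start of *Serpinb9* and 84 bases before 1 of the 2 *Serpinb6a* starts. That *Serpinb6a* window also held TTCNNNGAA at 2 places, 77 bases before and 20 bases after the start. The windows of *Serpinb6b* and *Serpinb9b* held none of the 5 motifs, and a window for *Serpinb1a* was not used here. A match of letters does not show that a factor binds.

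For each member, the genes with the most similar course over the 8 libraries were named by the distance of their centred log2 CPM. Such likeness is a description, since the 8 libraries share day and label. *Serpinb9* lay nearest to *Clcn3*, a chloride transporter gene (distance 0.37, against a median of 2.86 over 8097 genes), then *Plxnc1* and *Pcna*. *Serpinb6b* lay nearest to *Evi2a*, *Apaf1* of the apoptosome and *Ifngr1* of the interferon gamma receptor (0.46 to 0.53, median 2.62). *Serpinb6a* lay nearest to *Dnajb13*, *Ppp2r4* and *Ptpn22* (0.39 to 0.40, median 1.71). *Serpina3f* lay nearest to *Stil*, *Shcbp1* and *Ska1*, genes of mitosis (1.26 to 1.55, median 10.17), and *Serpina3g* to *Zbtb32*, *Melk* and *Neil3* (2.84 to 3.38, median 11.58). *Serpinb1a* lay nearest to *Trgv2* and *Trgj2*, segments of the T-cell receptor gamma locus, and to the chemokine gene *Ccl5* (2.07 to 2.20, median 6.04). Among the members themselves, *Serpinb6b* and *Serpinb9* were the closest pair (0.87) and *Serpina3g* and *Serpinb6a* the farthest (10.42).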

How the data were processed

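RNA of splenic CD8+ T cells was sequenced in 8 libraries (WT and KO, day 0 and day 5, 2 per group, groups and numbers from the labels). Per the labels, RNA was extracted with Trizol and the Direct-zol kit and libraries were built with the NEBNext Ultra kit for 50-base reads. The submitters' processing notes name HISAT2 2.1.0, HTSeq 0.11.1 and mm10 (GRCm38). The authors deposited raw counts per gene symbol for each library, with 5 summary lines that were left out of library sizes (assigned reads were 21.2% to 24.5%). Counting parameters and strand are not given in the sources used here.

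Counts were fitted with edgeR 4.0.16 (R 4.3.3; quasi-likelihood in its legacy form, TMM factors, filterByExpr with a minimum count of 10) over all 8 libraries with a mean per group, and Benjamini-Hochberg adjusted p (FDR) under 0.05 over 12597 genes was called. CPM are on the TMM-scaled library size. Each SE of an edgeR log2 value is its absolute value divided by the square root of the F statistic of its test. It is approximate for genes with few counts. The common biological variation was 15.0%, and totals of 4170126 to 11117971 counts set the precision of low genes. Ratios from groups of at most 5 counts per library carry exact intervals (95%). The fit was also run on simulated counts with known changes, a check of the code that does not bear on the results here. The members and lists were chosen with earlier results of these data known. Named were the members, *Satb1*, other serpins with at least 1 CPM in a group, up to 4 called genes per list and comparison with at least 10 CPM, *Gzma*, *Gzmb*, *Gzmm*, *Ctsb*, *Ctsl*, *Ctsg*, *Elane* and *Prf1*, and the 3 genes nearest each member, and a few others named in counts were picked after their values were seen. Alternatives were other size factors, filters, tests (DESeq2 1.42.0, edgeR 4 form), a replicate block, a GC and length offset, other libraries in the fit, equal depth (added after the data were seen) and leaving out each library. Sequences came from GENCODE M21 transcripts and RefSeq promoters, and a plan to print protein stretches and to match windows to the genome was replaced by coding bases and transcripts.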

Additional observations from a re-analysis of the deposited data

Results flagged for a closer look

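For *Satb1* the effect of the label differed between the days. The test of that difference gave a log2 value of -1.34 (SE 0.21, edgeR adjusted p = 0.0269), since the libraries labelled KO were above WT at day 0 and below it at day 5. Over 17 alternatives the edgeR or DESeq2 adjusted p ran from 3.77e-05 to 0.23, and 7 of them lost the call. The serpin values at day 0 rest on the same libraries, of which those labelled KO did not show less *Satb1*.

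*Tcrg-C2*, from the gamma delta T-cell list, also differed in its label effect between the days (log2 difference of differences -1.85, SE 0.30, edgeR adjusted p = 0.0303). It stood at 3.04 and 3.17 CPM in WT against 19.99 and 25.1 CPM in KO at day 0, and at 166 and 167 CPM against 288 and 371 CPM at day 5. Over 16 alternatives the edgeR or DESeq2 adjusted p ran from 4.23e-06 to 0.252, and 7 of them lost the call, among them leaving out either WT library of day 0, replicate 2 of WT at day 5 or either KO library of day 5.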

How the results depend on the processing

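No called result changed direction under any alternative run. The count of genes past the threshold moved by over 1.5 times under some. At day 0 it was 227, against 434 without a filter. At day 5 it was 205, against 418 without a filter, 350 with DESeq2 and 106 with the GC and length offset. For the difference between the days it was 20, against 154, 144 and 12 in the same order and 37 at equal depth. Leaving out 1 library gave 38 to 276, 32 to 249 and 0 to 41 genes. Culture gave 4630 to 6240 genes in WT and 4669 to 6510 in KO. Serpins past the threshold were 3 at day 0 (1 to 3 without 1 library) and 1 at day 5, against 2 with library totals, without a filter, with the replicate block, with the edgeR 4 form, with DESeq2 and at equal depth (1 to 2 without 1 library). For the difference between the days they were 0, against 2 without a filter, 1 with the replicate block and 2 with DESeq2 (0 to 1 without 1 library). The cause of these shifts was not tested. With a library left out, the lone library of its group was assumed to vary like the others.

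The labels number the 2 libraries of each group alike. Deviations of same-numbered libraries correlated at -0.07 to 0.23 across genes, so the numbers were not taken as pairs. The fit with the replicate block called 216 genes at day 0, 215 at day 5 and 29 for the difference between the days. Among the serpins, the log2 difference of KO from WT changed sign under 3 alternatives for *Serpina3f* and *Serpinb6a* at day 0, under 2 for *Serpina3f* at day 5 and under 1 for *Serpinb9* at day 5. Depth limits *Serpinb9b* at all times and *Serpina3f* and *Serpina3g* in WT at day 0.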
